A study of Homo sapiens with 12 samples.

Results

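The collagen genes of TYK-nu cells were described across 12 poly(A) RNA-seq libraries, in which 40 genes were measured and 8 of them were detected. A gene belonged to the family when its Ensembl identifier mapped to a symbol made of COL, a number, A and a number, so that each gene stands for 1 collagen chain. This rule found 40 of the 17508 genes in the count table. A gene was called detected when it had at least 10 exon counts in at least 3 libraries. The rule used names only, and no measured value. Of the 44 such symbols in GENCODE release 44, COL23A1, COL25A1, COL6A5 and COL8A2 were not analysed here.

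TYK-nu is an established cell line that the labels describe as a high grade serous ovarian carcinoma line, and all libraries came from this 1 line. The cells were grown with 15 μM cisplatin, a platinum drug that cross-links DNA, or with the solvent DMSO as control, for 24 or 72 h. Each of the 4 groups had 3 libraries: DMSO at 24 h, cisplatin at 24 h, DMSO at 72 h and cisplatin at 72 h. All groups had the same medium with serum, and no genetic change was made in any of them. The cells were grown in triplicate, and the labels do not say how far the triplicates of a group were kept apart, so p-values measure only the spread between these libraries, which may be technical. Exon and intron counts summed to between 18526830 and 68753262 per library, and the 2 deepest libraries were in the group given cisplatin for 72 h.

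Collagens are the main structural proteins of the extracellular matrix. Each chain folds with partner chains into a long helical trimer, after hydroxylation and glycosylation in the endoplasmic reticulum. Fibrillar collagens build banded fibrils, FACIT collagens sit on fibril surfaces, type IV collagens form the sheet of basement membranes, and transmembrane collagens anchor cells to the matrix beneath them. In ovarian tumours most fibrillar collagen is known to come from stromal fibroblasts, while epithelial cells contribute to the basement membrane.

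The labelled cell type was checked against marker genes by their exon CPM (counts per 1000000 exon counts of a library, scaled by edgeR's TMM factors). Of 12 ovarian carcinoma markers, 10 had an entry and 6 were detected, and their summed level lay between 280 and 319 CPM in all libraries. KRT18 (157 CPM on average), MECOM (117 CPM) and KRT8 (22.4 CPM) carried this sum. CDH1 and SOX17 were at 0 in every library, and PAX8 reached at most 2 counts in a library. The mesenchymal marker VIM stood at 7658 CPM. All 4 endothelial markers were detected, with PECAM1 at 1933 CPM, CDH5 at 859 CPM, KDR at 266 CPM and VWF at 0.646 CPM. Of 7 fibroblast markers with an entry 3 were detected, THY1 at 332 CPM among them, while LUM was at 0 and POSTN had at most 1 count. Of 4 blood markers CD68 stood at 493 CPM, LYZ at 0.232 CPM, and PTPRC and HBB were at 0. The line is therefore named here by its label only, since several defining markers of ovarian epithelium were absent or close to it.

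Only 20% of the collagen genes were detected, beside 61.9% of all 17085 genes with an exon entry (10576 genes). The 8 detected genes were COL17A1, COL27A1, COL8A1, COL5A2, COL11A2, COL16A1, COL6A1 and COL7A1. Together they held 64561 of the 64687 exon counts of the family. COL17A1 and COL27A1 alone held 90.9% of them. The collagen genes took between 0.0135% and 0.0196% of the exon counts of a library. In the 6 libraries at 24 h this share lay between 0.0135% and 0.0147%, and in the 6 libraries at 72 h between 0.0172% and 0.0196%, so the times did not overlap. COL17A1 and COL27A1 set most of this share.

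**Figure D1:**
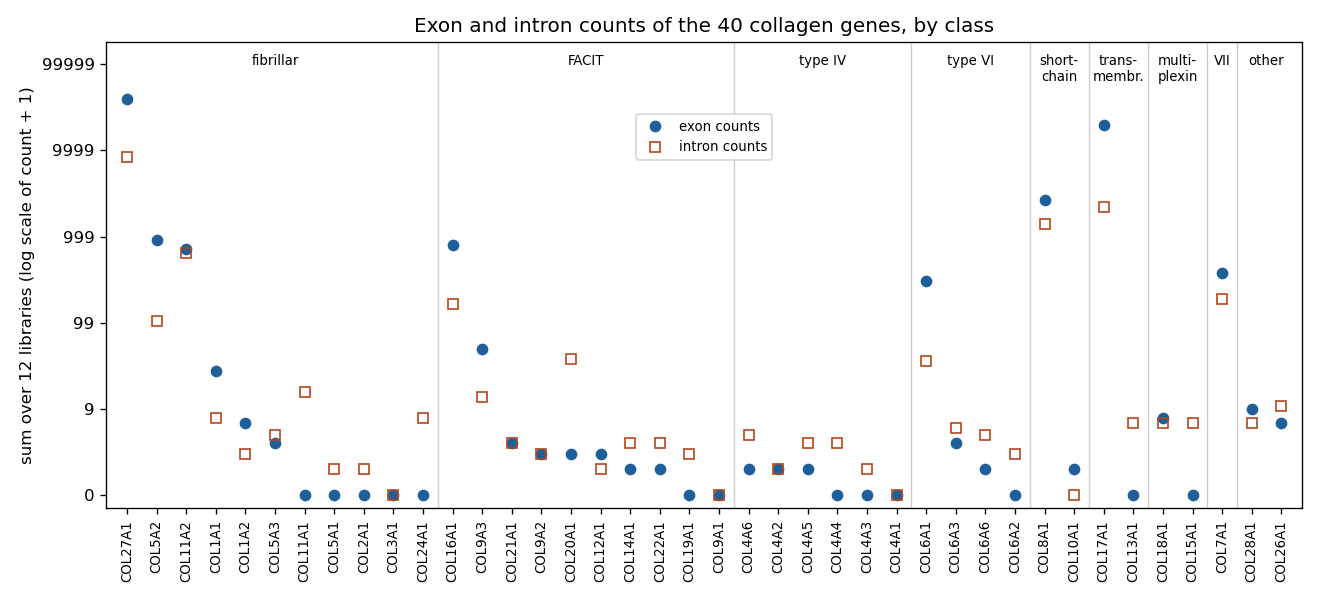
Sums of exon counts (filled circles) and intron counts (open squares) over the 12 libraries for each of the 40 collagen genes, on a log scale of the count plus 1, grouped by structural class. The 8 detected genes hold at least 305 exon counts each, and every other gene lies at or below 49.

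By class, 3 of 11 fibrillar genes were detected (COL27A1, COL5A2 and COL11A2), 1 of 10 FACIT genes (COL16A1), 1 of 4 type VI genes (COL6A1), 1 of 2 short-chain network genes (COL8A1), 1 of 2 transmembrane genes (COL17A1), and COL7A1, which forms the anchoring fibrils of skin and mucosa. None of the 6 type IV genes was detected. Their exon counts over all 12 libraries came to 3 in sum, 1 each for COL4A2, COL4A5 and COL4A6, with 0 for COL4A1, COL4A3 and COL4A4. Neither multiplexin gene was detected, with 7 exon counts for COL18A1 and 0 for COL15A1. COL26A1 and COL28A1, of no larger class, had 6 and 9.

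The 32 genes below the detection limit held 126 exon and 158 intron counts over all libraries. Exon counts were 0 in every library for 13 of them, and 3 of these, COL3A1, COL4A1 and COL9A1, had no intron count either. A count of 0 allows up to 3 counts in a library, which is 0.0469 CPM in the deepest and 0.173 CPM in the shallowest. The other 10 genes without an exon count were COL11A1, COL4A4, COL19A1, COL5A1, COL2A1, COL6A2, COL4A3, COL24A1, COL13A1 and COL15A1, with between 1 and 15 intron counts in all. The 19 genes with some exon counts were COL9A3, COL1A1, COL26A1, COL18A1, COL28A1, COL21A1, COL1A2, COL5A3, COL9A2, COL10A1, COL4A6, COL6A3, COL20A1, COL14A1, COL22A1, COL12A1, COL6A6, COL4A2 and COL4A5. COL20A1 had 2 exon but 37 intron counts.

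COL9A3, a FACIT chain of cartilage, lay just outside the detection limit. Its exon counts were 1, 1 and 1 in DMSO at 24 h, 2, 2 and 1 in cisplatin at 24 h, 5, 1 and 8 in DMSO at 72 h, and 10, 16 and 1 in cisplatin at 72 h. The highest values fell in the deepest libraries, and its exons overlap those of the antisense gene TCFL5 by 155 bases. Apart from COL9A3, no undetected gene exceeded 6 exon counts in a library. COL1A1, the main chain of type I collagen, had between 0 and 5 exon counts per library and 27 in all, and COL1A2, its partner, had 6 in all. Just inside the limit were COL6A1, with at least 10 exon counts in 10 libraries and between 5 and 48 counts, and COL7A1 and COL16A1, each with at least 10 in 11 libraries.

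Some detected chains are known to need partner chains that were not detected. COL5A2 is a chain of type V collagen, which sets the diameter of type I fibrils. It had 909 exon counts over all libraries, while COL5A1 had 0 and COL5A3 had 3. COL6A1 had 305 exon counts beside 0 for COL6A2, its neighbour 93.1 kb away on chromosome 21, and 3 for COL6A3. COL11A2, a chain of the cartilage collagen type XI, had 725, and its partners COL11A1 and COL2A1 had 0 each. COL3A1, 19.2 kb from COL5A2 on chromosome 2, had 0. The other 5 detected chains (COL17A1, COL27A1, COL8A1, COL16A1 and COL7A1) are known to form homotrimers, alone or, for COL8A1, also with another chain.

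Levels between genes were compared as exon CPM per kb of exon sequence (GENCODE release 44). COL17A1 had the highest mean over the 12 libraries, 7.09 CPM per kb, followed by COL27A1 at 7.04, and their libraries overlapped. COL8A1 followed at 0.728 CPM per kb, and its highest library (0.822) lay below the lowest of COL27A1 (5.83). COL5A2 at 0.301 was below every library of COL8A1. From there COL11A2 (0.234), COL16A1 (0.189), COL6A1 (0.145) and COL7A1 (0.0880 CPM per kb) each overlapped their neighbour in the order. The median of 10568 detected genes with a length was 6.19 CPM per kb. COL17A1 was above 53.4% and COL27A1 above 53.1% of them, COL8A1 above 15.9%, and the remaining 5 collagen genes above between 3.29% and 9.30%. A gene-level length takes the union of all annotated exons, so levels of genes with long alternative exons are underestimated.

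The promoters of the most abundant pair, of the gene with the largest change with time and of a silent basement membrane gene are shown to give the sequence context of these levels. Each is the 250 bases before a RefSeq start (GRCh38.p14), read 5′ to 3′ on the gene's strand. Capitals mark each CG pair and the letters TATAAA. COL17A1 is at chr10:104085881-104086130 (minus strand), COL27A1 at chr9:114155287-114155536 (plus strand), COL16A1 at chr1:31704018-31704267 (minus strand) and COL4A1 at chr13:110307158-110307407 (minus strand).
COL17A1: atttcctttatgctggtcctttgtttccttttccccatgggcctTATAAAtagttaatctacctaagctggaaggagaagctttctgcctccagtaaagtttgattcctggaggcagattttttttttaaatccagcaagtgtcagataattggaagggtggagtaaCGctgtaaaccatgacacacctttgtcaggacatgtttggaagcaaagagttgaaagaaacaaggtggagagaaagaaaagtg
COL27A1: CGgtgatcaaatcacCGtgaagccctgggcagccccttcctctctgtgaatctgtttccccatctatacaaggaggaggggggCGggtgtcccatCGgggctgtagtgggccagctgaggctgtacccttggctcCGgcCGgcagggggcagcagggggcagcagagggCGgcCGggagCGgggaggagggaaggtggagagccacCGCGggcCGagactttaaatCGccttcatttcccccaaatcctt
COL16A1: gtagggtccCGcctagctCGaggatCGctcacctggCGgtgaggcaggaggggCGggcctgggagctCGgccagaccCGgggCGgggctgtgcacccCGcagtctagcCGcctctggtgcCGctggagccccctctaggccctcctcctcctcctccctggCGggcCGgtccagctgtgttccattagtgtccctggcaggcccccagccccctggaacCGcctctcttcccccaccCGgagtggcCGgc
COL4A1: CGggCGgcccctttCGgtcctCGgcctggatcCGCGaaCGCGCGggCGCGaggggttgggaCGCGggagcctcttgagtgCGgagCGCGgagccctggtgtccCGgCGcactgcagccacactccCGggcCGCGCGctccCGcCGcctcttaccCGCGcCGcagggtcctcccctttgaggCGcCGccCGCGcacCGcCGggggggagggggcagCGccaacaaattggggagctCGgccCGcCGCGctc

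The COL17A1 promoter was poor in CG pairs, with 1 in 250 bases and a GC content of 40.4%, and 6.06% of all 35116 windows of this length had fewer. COL27A1 had 13 CG pairs and COL16A1 16, close to the median of 11 over all windows (quartiles 3 and 23). The silent COL4A1 had 38, more than 96.7% of windows. TATAAA, searched on both strands, occurred once in the COL17A1 window, 206 bases before the start, and in 10.7% of all windows. Windows were given for 29 of the 40 genes, with 1 to 4 starts each, and 7 of the 29 held TATAAA on either strand. With the richest window of each gene, the median was 13 CG pairs for the 5 detected and 16.5 for the 24 undetected genes. These are descriptions of letters, and the data hold no measurement at the promoters.

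To ask how the collagen genes moved between 24 and 72 h, exon counts were compared in each treatment by edgeR's quasi-likelihood test on all 12 libraries. In DMSO, 5 of the 8 detected genes rose (adjusted p under 0.05) and none fell, beside 32.6% of all 10444 genes tested that rose and 32.5% that fell. In cisplatin, 4 of the 8 rose and none fell, beside 32.0% and 31.5%. The median log2 change of the 8 was 0.61 in DMSO and 0.45 in cisplatin, and that of all genes 0.01 and 0.02. COL17A1, COL27A1, COL16A1 and COL5A2 rose in both treatments, and COL11A2 rose in DMSO. These genes were tested because they passed a filter on low counts, and the 32 undetected ones did not pass it.

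**Figure D2:**
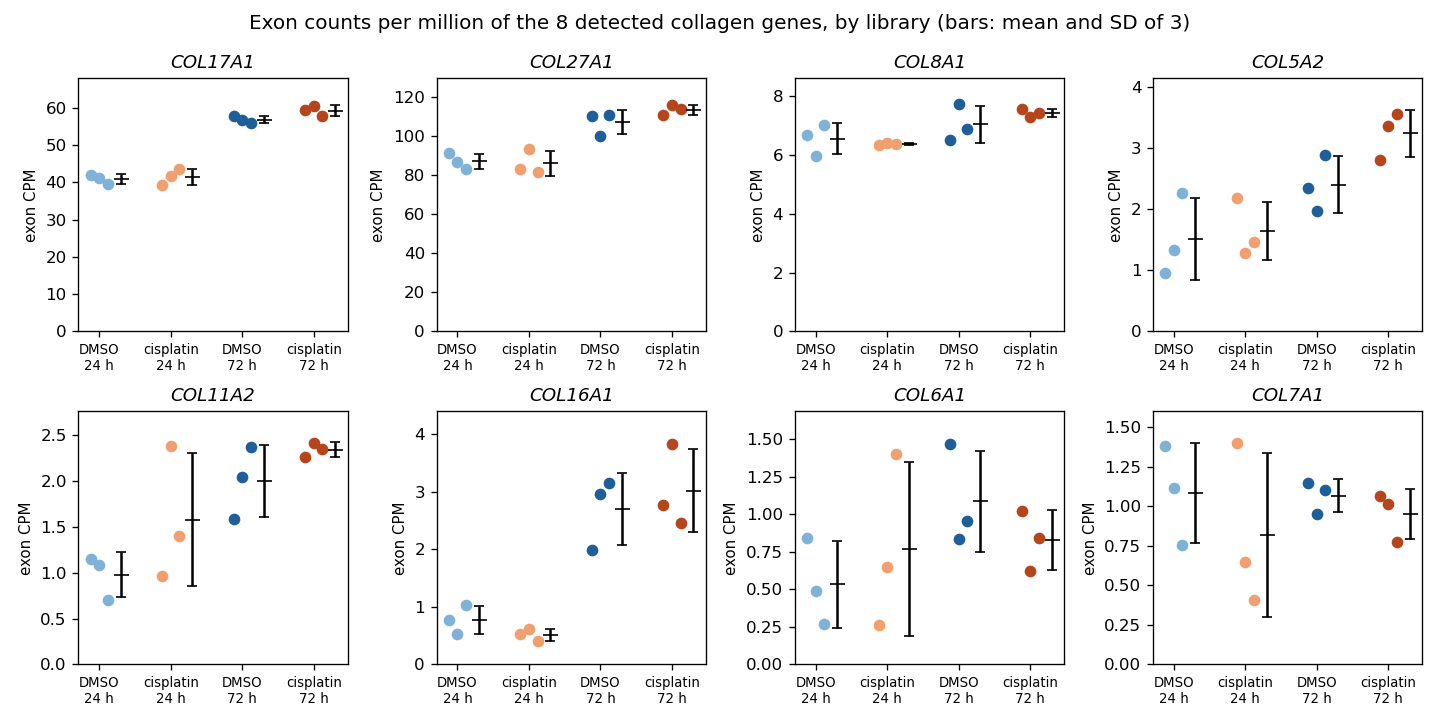
Exon CPM of each detected collagen gene in the 12 libraries (points) with the mean and SD of 3 libraries (bars). COL17A1, COL27A1 and COL16A1 lie higher in all 72 h libraries than in any 24 h library. For COL17A1, COL27A1 and COL8A1, DMSO and cisplatin lie close together at each time.

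COL17A1 encodes the transmembrane collagen of hemidesmosomes, also known as BP180, which ties basal epithelial cells to the basement membrane. Its exon CPM were 42.0, 41.1 and 39.4 in DMSO at 24 h, 39.2, 41.6 and 43.5 in cisplatin at 24 h, 57.7, 56.8 and 55.9 in DMSO at 72 h, and 59.4, 60.5 and 57.7 in cisplatin at 72 h. All 6 libraries at 72 h were above all 6 at 24 h. The means rose from 40.8 ± 1.30 to 56.8 ± 0.913 CPM in DMSO (SD, n = 3), a log2 change of 0.47 (SE 0.061, edgeR adjusted p = 3.33e-07). In cisplatin they rose from 41.5 ± 2.17 to 59.2 ± 1.38 CPM, by 0.52 on the log2 scale (SE 0.060, edgeR adjusted p = 7.95e-08).

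COL27A1 encodes a fibrillar collagen known from cartilage. It had 91.3, 87.1 and 83.2 CPM in DMSO at 24 h, 83.5, 93.4 and 81.7 CPM in cisplatin at 24 h, 111, 100 and 111 CPM in DMSO at 72 h, and 111, 116 and 114 CPM in cisplatin at 72 h. The times did not overlap in either treatment. The log2 change was 0.30 in DMSO (SE 0.062, edgeR adjusted p = 0.000173) and 0.40 in cisplatin (SE 0.061, edgeR adjusted p = 5.05e-06).

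COL16A1, a FACIT chain found near cells in many tissues, had the largest rise of the family. Its exon CPM were 0.767, 0.523 and 1.02 in DMSO at 24 h and 0.525, 0.616 and 0.409 in cisplatin at 24 h. At 72 h they were 1.98, 2.96 and 3.16 in DMSO and 2.77, 3.82 and 2.45 in cisplatin, above every library at 24 h. The raw exon counts behind them were between 7 and 21 at 24 h and between 50 and 245 at 72 h. The change was 3.66-fold in DMSO (log2 1.87, SE 0.29, edgeR adjusted p = 3.82e-06) and 5.69-fold in cisplatin (log2 2.51, SE 0.29, edgeR adjusted p = 7.43e-08). COL16A1 overlaps the antisense gene PEF1-AS1, of which 117 exon bases lie in its exons, and the strand option of the counting is not given in the sources used here.

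COL5A2 had 0.959, 1.33 and 2.26 exon CPM in DMSO at 24 h, 2.19, 1.29 and 1.46 in cisplatin at 24 h, 2.34, 1.97 and 2.89 in DMSO at 72 h, and 2.81, 3.35 and 3.55 in cisplatin at 72 h. The DMSO groups overlapped and the cisplatin groups did not. It rose by 0.74 (log2, SE 0.27) in DMSO, with an edgeR adjusted p of 0.0182, and by 0.99 (SE 0.25) in cisplatin, with an edgeR adjusted p of 0.00130. The call in DMSO was lost without replicate 1 or 2 at 24 h or replicate 3 at 72 h (log2 0.49, 0.66 and 0.56, with edgeR adjusted p of 0.127, 0.0722 and 0.116).

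COL11A2 had 1.15, 1.08 and 0.701 exon CPM in DMSO at 24 h and 1.59, 2.05 and 2.37 in DMSO at 72 h, which did not overlap. It rose 2.02-fold (log2 1.02, SE 0.29, edgeR adjusted p = 0.00380). In cisplatin it had 0.962, 2.38 and 1.40 CPM at 24 h and 2.26, 2.42 and 2.35 CPM at 72 h, and replicate 2 at 24 h reached the level of 72 h. The log2 change in cisplatin was 0.50 (SE 0.25, edgeR adjusted p = 0.0898). Without that replicate it was 1.01, with an edgeR adjusted p of 0.00397.

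The other 3 detected genes did not pass the test in either treatment. COL8A1, a short-chain collagen of the vessel wall and cornea, ranged from 5.97 to 7.74 CPM over all libraries, with log2 changes of 0.11 (SE 0.12) in DMSO and 0.22 (SE 0.11) in cisplatin. COL7A1 ranged from 0.409 to 1.40 CPM, with log2 changes of -0.05 (SE 0.34) and 0.23 (SE 0.34). COL6A1, a chain of the beaded filaments around cells, ranged from 0.262 to 1.47 CPM. Its log2 change in DMSO was 0.95 (SE 0.45, edgeR adjusted p = 0.0678) and in cisplatin 0.18 (SE 0.43). In DMSO the edgeR adjusted p was 0.0336 in a fit of the 6 libraries compared alone and 0.0227 without replicate 1 at 24 h, where the log2 change was 1.42. It was 0.0254 without a filter beyond 1 count, and 0.0481 and 0.0485 without cisplatin replicate 1 or 3 at 24 h.

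Marker genes of other cell types moved with time in the same libraries. The summed endothelial markers lay between 3608 and 3750 CPM at 24 h and between 2299 and 2591 CPM at 72 h, with PECAM1 and CDH5 falling in both treatments. KDR rose in cisplatin (log2 0.15, SE 0.051, edgeR adjusted p = 0.0144) and had a log2 change of -0.01 (SE 0.051) in DMSO, and VWF passed in neither. The sum of the mesenchymal list went from between 6990 and 7658 to between 8239 and 8760 CPM, and all 3 of its tested genes rose in both treatments. The sum of the blood list, set by CD68, which rose, went from between 322 and 380 to between 592 and 657 CPM, while LYZ, its other tested gene, fell (log2 -4.10, SE 1.0 in DMSO and -3.15, SE 0.77 in cisplatin). The sum of the fibroblast list, set by THY1, which fell, went from between 344 and 396 to between 277 and 296 CPM, while FAP rose (log2 1.03, SE 0.30 in DMSO and 0.95, SE 0.30 in cisplatin) and ACTA2 passed in neither. The ovarian carcinoma markers moved in opposite directions within a sum that stayed between 280 and 319 CPM. KRT8 rose (log2 1.29, SE 0.091 in DMSO and 1.42, SE 0.091 in cisplatin), as did EPCAM (2.34, SE 0.37 and 2.55, SE 0.36). KRT18 fell (log2 -0.37, SE 0.053 and -0.27, SE 0.052), WT1 (log2 -0.78, SE 0.22) and MECOM (log2 -0.15, SE 0.054) fell in DMSO and did not pass in cisplatin, and KRT19 passed in neither. Depth moved as well, and the part of either in the collagen changes was not tested. Fewer cells of a type and less RNA per cell cannot be told apart in bulk samples.

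The comparison of cisplatin with DMSO asked whether the drug changed collagen RNA at each time. None of the 8 genes passed edgeR's test of exon counts at 24 h, when 0.0% of all 10444 genes did, or at 72 h, when 0.0287% (3 genes) did. At an unadjusted p under 0.05, 1 of the 8 stood out at 24 h, COL11A2, and none at 72 h. Over all genes 260 and 1311 passed that unadjusted limit. Without single libraries edgeR's test again called 0 collagen genes, beside up to 0.00948% of all genes at 24 h and up to 0.685% at 72 h. DESeq2 also called none of the 8, with 0 and 85 calls over all genes.

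**Figure D3:**
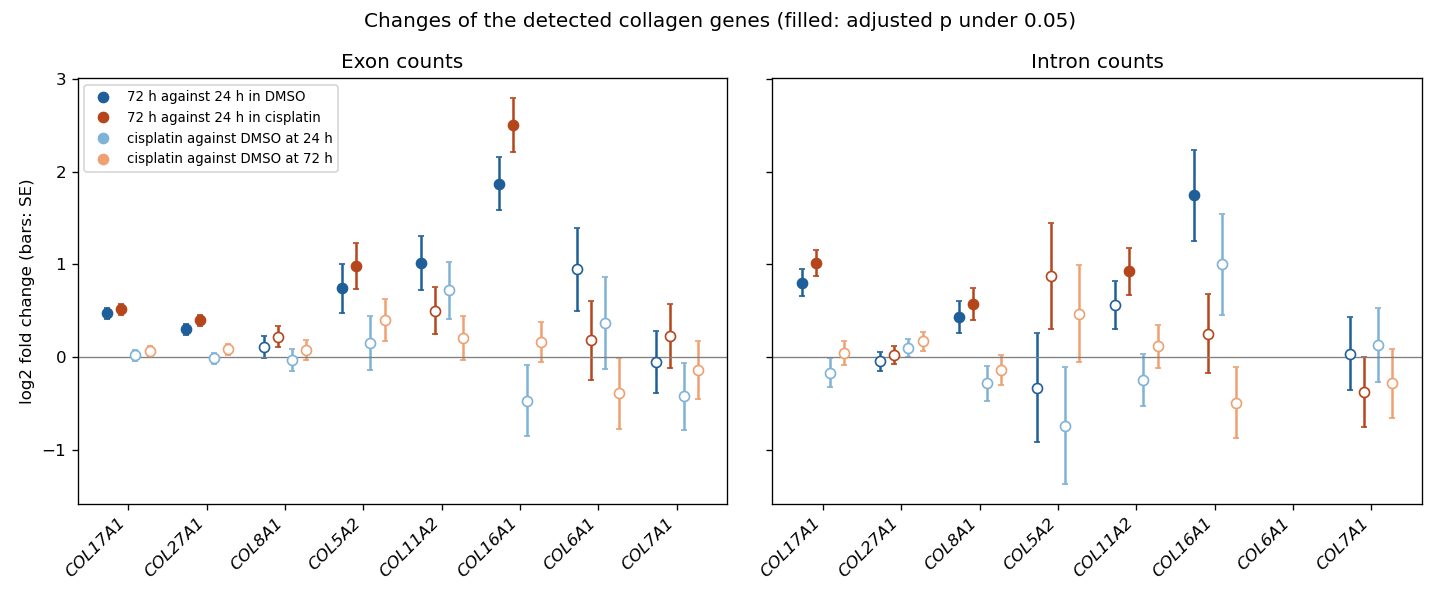
Log2 fold change (points) and its SE (bars) of the detected collagen genes for 72 h against 24 h in each treatment and for cisplatin against DMSO at each time, in exon counts (left) and intron counts (right), with filled points where the adjusted p was under 0.05. The filled points all belong to the comparisons of times and lie above 0, and the comparisons of cisplatin with DMSO hold open points only. COL6A1 did not pass the filter on intron counts.

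For the abundant genes the differences between cisplatin and DMSO were small. COL17A1 differed by 0.02 (log2, SE 0.063) at 24 h and by 0.06 (SE 0.059) at 72 h. COL27A1 differed by -0.01 (SE 0.062) and 0.08 (SE 0.060), and COL8A1 by -0.03 (SE 0.12) and 0.08 (SE 0.11). At 72 h all 3 cisplatin libraries of COL17A1 and of COL27A1 lay above all 3 DMSO libraries, with edgeR adjusted p of 0.703 and 0.5995. The other detected genes overlapped at 72 h, and all of them did at 24 h. How many of all genes lay apart in this way was not counted, so nothing is drawn from it.

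For the 5 genes of low count the errors were wide. At 24 h COL11A2 differed by 0.72 (SE 0.31, edgeR adjusted p = 0.9997), and that group's replicate 2 stood above the other 2. COL16A1 differed by -0.47 (SE 0.39) at 24 h and 0.17 (SE 0.21) at 72 h, and COL5A2 by 0.16 (SE 0.29) and 0.40 (SE 0.22, edgeR adjusted p = 0.471). COL6A1 differed by 0.37 (SE 0.49) and -0.39 (SE 0.38), and COL7A1 by -0.42 (SE 0.36) and -0.14 (SE 0.31). None of these values passed the test. The sign of 3 of them turned without a single library. COL6A1 at 24 h stood at -0.20 without cisplatin replicate 3 of that time, and COL5A2 at 24 h at -0.10 without cisplatin replicate 1 and at -0.09 without DMSO replicate 1. COL16A1 at 72 h stood at -0.06 without cisplatin replicate 2 and at -0.00033 without DMSO replicate 1.

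Whether the cisplatin effect differed between the times was tested directly. None of the 8 genes passed edgeR's test of this difference in exon counts, beside 0.0% of all genes. None passed an unadjusted p under 0.05, beside 985 of all 10444 genes. DESeq2 called none either. The values ranged from -0.76 (SE 0.63) for COL6A1 to 0.63 (SE 0.44) for COL16A1. That COL11A2 rose in DMSO and missed the threshold in cisplatin is not shown to be a difference between treatments, since the test of the difference gave -0.52 (SE 0.39, edgeR adjusted p = 0.672).

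Intron counts were compared in the same way for 7 of the 8 genes. The study read intronic sequence as a sign of incomplete splicing, and the source of these counts was not tested here. Between 24 and 72 h in DMSO, 3 of the 7 rose, beside 17.2% of all 9618 genes tested. In cisplatin 3 of the 7 rose, beside 16.4%. COL17A1 and COL8A1 rose in both, COL16A1 rose in DMSO and COL11A2 in cisplatin. The median log2 change of the 7 was 0.43 and 0.58, and that of all genes -0.01 and -0.02. Intron CPM are relative to all intron counts of a library, so they are not on the scale of exon CPM.

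COL17A1 had 55.6, 49.9 and 57.4 intron CPM in DMSO at 24 h, 48.1, 47.8 and 48.8 in cisplatin at 24 h, 97.5, 88.9 and 97.2 in DMSO at 72 h, and 93.1, 102 and 97.3 in cisplatin at 72 h. The times were well apart in both treatments. Its intron counts rose 1.75-fold in DMSO (log2 0.81, SE 0.14, edgeR adjusted p = 1.05e-05) and 2.03-fold in cisplatin (log2 1.02, SE 0.14, edgeR adjusted p = 5.89e-08).

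COL27A1, in contrast, had similar intron CPM at both times. The libraries had 283, 288 and 304 in DMSO at 24 h, 273, 353 and 305 in cisplatin at 24 h, 301, 289 and 260 in DMSO at 72 h, and 333, 314 and 305 in cisplatin at 72 h. All groups overlapped across time. The log2 change was -0.05 (SE 0.10) in DMSO and 0.03 (SE 0.098) in cisplatin.

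COL8A1 had 50.9, 42.8 and 39.7 intron CPM in DMSO at 24 h and 68.1, 53.0 and 59.7 in DMSO at 72 h, and 31.5, 36.2 and 43.8 in cisplatin at 24 h and 62.0, 55.9 and 44.8 in cisplatin at 72 h. The times did not overlap, by a small margin in each treatment. It rose by 0.43 (log2, SE 0.17) in DMSO, close to the threshold (edgeR adjusted p = 0.0491), and by 0.58 (SE 0.17) in cisplatin (edgeR adjusted p = 0.00746). Without single libraries the DMSO value lay between 0.35 and 0.44 where the call was lost, namely without replicate 2 or 3 of DMSO at 24 h, replicate 1 or 3 of DMSO at 72 h or replicate 1 or 2 of cisplatin at 72 h, and the edgeR adjusted p then reached up to 0.173. The cisplatin call was lost without replicate 1 at 24 h (log2 0.48, edgeR adjusted p = 0.0515) or replicate 1 at 72 h (log2 0.48, edgeR adjusted p = 0.0550).

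COL16A1 had few intron counts, 10, 2 and 2 in DMSO at 24 h, 9, 12 and 9 in cisplatin at 24 h, 16, 15 and 27 in DMSO at 72 h, and 22, 25 and 17 in cisplatin at 72 h. In CPM the DMSO groups did not overlap and the cisplatin groups did. The log2 change was 1.74 in DMSO (SE 0.49, edgeR adjusted p = 0.00411) and 0.25 in cisplatin (SE 0.43, edgeR adjusted p = 0.693). Without replicate 2 of DMSO at 24 h the change in DMSO was 1.32 and its edgeR adjusted p 0.0532. The difference of these changes was -1.49 (SE 0.66), which passed an unadjusted p under 0.05 but had an edgeR adjusted p of 0.828.

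COL11A2 had 26.5, 12.7 and 14.2 intron CPM in DMSO at 24 h, 13.7, 16.3 and 14.9 in cisplatin at 24 h, 30.5, 19.3 and 29.2 in DMSO at 72 h, and 29.0, 30.6 and 26.0 in cisplatin at 72 h. Replicate 1 of DMSO at 24 h reached into the range of 72 h. It rose by 0.92 (log2, SE 0.25, edgeR adjusted p = 0.00319) in cisplatin, and the change in DMSO was 0.56 (SE 0.26, edgeR adjusted p = 0.0882). That DMSO value was 0.98 without replicate 1 at 24 h (edgeR adjusted p = 0.00842) and 0.73 without replicate 2 at 72 h (edgeR adjusted p = 0.0389). COL5A2 (0 to 20 intron counts) and COL7A1 (10 to 32) did not pass in either treatment.

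In intron counts, none of the 7 genes passed edgeR's test of cisplatin against DMSO, beside 0.0208% of all genes (2) at 24 h and 0.0416% (4) at 72 h. None of the 7 had an unadjusted p under 0.05, beside 481 of all 9618 genes at 24 h and 621 at 72 h. The difference of the drug effect between the times passed for none of the 7, beside 0.0416% of all genes. There COL16A1 alone was under an unadjusted p of 0.05, beside 549 of all 9618 genes. DESeq2 called none of the 7 in these 3 tests.

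The study used the ratio of exon to intron counts of a gene to describe how much of its RNA is spliced. In edgeR's test of the ratio, 1 of 7 collagen genes rose between 24 and 72 h in DMSO, beside 8.09% of all 9380 genes, and 2 of 7 rose in cisplatin, beside 8.36%. COL27A1 rose in both and COL16A1 in cisplatin. None of the 7 passed the test of cisplatin against DMSO at 24 h, beside 0.0% of all genes, or at 72 h, beside 0.0213%, and the difference between the times passed for none, beside 0.0% of all genes. At an unadjusted p under 0.05, COL16A1 alone passed at 24 h, beside 594 of all 9380 genes. It alone passed in the difference between the times too, beside 427, and none of the 7 did at 72 h, beside 585.

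**Figure D4:**
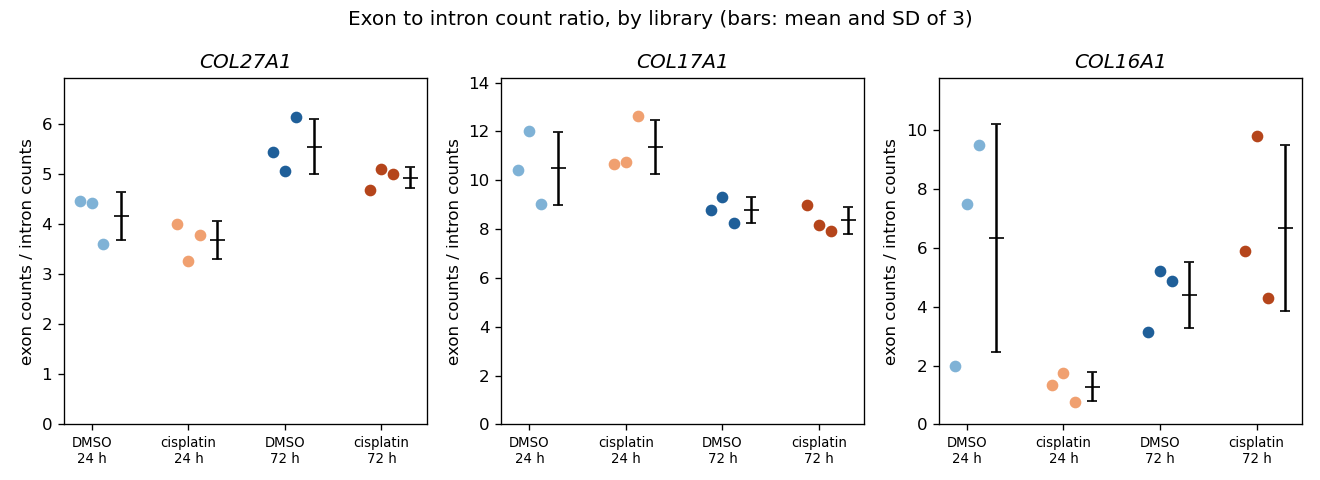
Exon counts divided by intron counts in each library (points) with the mean and SD of 3 libraries (bars) for COL27A1, COL17A1 and COL16A1. COL27A1 is higher at 72 h in both treatments, COL17A1 is lower at 72 h in cisplatin, and COL16A1 is lowest in cisplatin at 24 h, between 0.778 and 1.75.

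The exon/intron ratio of COL27A1 was 4.46, 4.42 and 3.60 in DMSO at 24 h, 4.01, 3.27 and 3.79 in cisplatin at 24 h, 5.45, 5.06 and 6.14 in DMSO at 72 h, and 4.69, 5.10 and 5.00 in cisplatin at 72 h. The times did not overlap. It rose 1.34-fold in DMSO (log2 0.42, SE 0.13, edgeR adjusted p = 0.0345) and 1.35-fold in cisplatin (log2 0.43, SE 0.13, edgeR adjusted p = 0.0260), as its exon counts rose and its intron counts stayed within their spread. The median over all genes was 0.10 and 0.11 on this log2 scale. The DMSO call was lost without replicate 3 at 24 h, or replicate 1 or 3 at 72 h (log2 0.32, 0.43 and 0.34, with edgeR adjusted p of 0.157, 0.0717 and 0.163), and the cisplatin call without replicate 2 at 24 h or replicate 2 or 3 at 72 h (log2 0.34, 0.40 and 0.42, with edgeR adjusted p of 0.131, 0.105 and 0.0729).

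The ratio of COL17A1 had the opposite sign. It was 10.4, 12.01 and 9.04 in DMSO at 24 h, 10.7, 10.8 and 12.6 in cisplatin at 24 h, 8.77, 9.30 and 8.26 in DMSO at 72 h, and 8.98, 8.18 and 7.94 in cisplatin at 72 h. Only the cisplatin groups did not overlap. The log2 change was -0.26 (SE 0.16, edgeR adjusted p = 0.309) in DMSO and -0.42 (SE 0.15, edgeR adjusted p = 0.0706) in cisplatin, so neither passed.

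The ratio of COL16A1 was 2.00, 7.50 and 9.50 in DMSO at 24 h, 1.33, 1.75 and 0.778 in cisplatin at 24 h, 3.12, 5.2 and 4.89 in DMSO at 72 h, and 5.91, 9.80 and 4.29 in cisplatin at 72 h. In cisplatin the ratio rose 5.03-fold (log2 2.33, SE 0.53, edgeR adjusted p = 0.00421), and the groups did not overlap. In DMSO the log2 change was 0.17 (SE 0.67), and -0.90 without replicate 1 at 24 h. At 24 h the cisplatin ratio was below DMSO in every library (log2 -1.57, SE 0.66), with an edgeR adjusted p of 0.761. The ratio in DMSO at 24 h rests on 2, 2 and 10 intron counts.

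The logistic regression that the study used takes reads as independent and so leaves out the spread between replicates. A gene was tested where none of the 6 libraries compared had an exon or an intron count of 0. In DMSO, 2 of 9 collagen genes tested had a higher ratio at 72 h (COL27A1 and COL5A2) and 1 a lower one (COL17A1), beside 22.5% of all 9739 genes higher and 11.1% lower. In cisplatin, 2 of 6 were higher (COL16A1 and COL27A1) and 1 lower (COL17A1), beside 29.0% and 11.6% of 9818 genes. Between cisplatin and DMSO, 2 of 6 passed at 24 h, beside 11.5% of all genes, and 1 of 8 at 72 h, beside 11.4%.

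In that regression COL27A1 was lower with cisplatin at 24 h by 0.24 on the log2 scale of the ratio (SE 0.056, adjusted p = 0.00112 by the logistic regression) and at 72 h by 0.19 (SE 0.046, adjusted p = 0.00191), although the libraries overlapped at both times. COL11A2 was higher with cisplatin at 24 h by 0.91 (SE 0.30, adjusted p = 0.0290). For the same comparisons edgeR gave -0.18 (SE 0.13), -0.17 (SE 0.13) and 0.82 (SE 0.41), with adjusted p of 0.855, 0.832 and 0.80. When a dispersion was estimated from the replicates (quasi-binomial), none of the collagen genes passed in any of the 4 comparisons, and over all genes 64 of 9739 passed between the times in DMSO, 97 of 9818 between the times in cisplatin, and 0 between cisplatin and DMSO at either time. Without replicate 2 of cisplatin at 24 h the logistic regression called 0 collagen genes at 24 h, beside 245 of 9690 genes in all (2.53%), and without replicate 2 or 3 of DMSO at 24 h it called 1, beside 503 of 9706 (5.18%) and 1384 of 9765 (14.2%). Without replicate 3 of DMSO at 72 h it called 0 collagen genes at 72 h, beside 1120 of 10037 genes (11.2%).

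The genes that modify, export, process, degrade and bind collagens were read from the same fits of exon counts. None of the 58 genes tested over 7 lists passed edgeR's test of cisplatin against DMSO at 24 or 72 h, with 1 and 5 of them under an unadjusted p of 0.05, beside 2.49% and 12.6% of all genes. DESeq2 called none at 24 h and NID1 at 72 h. With time, members rose and fell, and the counts of each list stand beside 32.6% of all tested genes that rose and 32.5% that fell in DMSO, and 32.0% and 31.5% in cisplatin. Of 16 tested genes that modify or fold collagen chains, 4 rose and 8 fell in DMSO and 4 rose and 10 fell in cisplatin, with median log2 changes of -0.18 and -0.22.

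Among them COLGALT1, which adds galactose to hydroxylysine, fell from 218 ± 14.1 to 101 ± 5.59 CPM in DMSO (SD, n = 3), with a log2 change of -1.11 (SE 0.060) there and -0.94 (SE 0.059) in cisplatin. SERPINH1, the collagen chaperone HSP47, changed by -0.72 (SE 0.053) and -0.68 (SE 0.053) and FKBP14, a prolyl isomerase, by -0.76 (SE 0.064) and -0.63 (SE 0.063). CRTAP, a part of the prolyl 3-hydroxylase complex, rose by 0.57 (SE 0.046) and 0.59 (SE 0.046). The lysyl hydroxylase PLOD2 averaged 0.0398 CPM and was not tested, whereas PLOD1 stood at 392 and PLOD3 at 277 CPM.

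Of 9 genes for secretion of large cargo, 3 rose and 5 fell in each treatment. MIA3 (TANGO1), which loads collagens into COPII carriers, rose by 0.42 (SE 0.054) in DMSO and 0.50 (SE 0.053) in cisplatin. CREB3L1, a transcription factor known to drive collagen genes, rose from 9.64 ± 1.67 to 19.3 ± 1.89 CPM in DMSO, by 0.99 (SE 0.11), and by 1.05 (SE 0.11) in cisplatin. The COPII gene SEC24D fell by 0.37 (SE 0.050) and 0.31 (SE 0.050).

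Of 5 tested propeptide processing genes, 1 rose and 1 fell in DMSO and 1 rose and 2 fell in cisplatin. PCOLCE, the enhancer of the C-proteinase, rose by 0.53 (SE 0.11) and 0.46 (SE 0.11), and FURIN changed by -1.04 (SE 0.057) and -0.88 (SE 0.056). ADAMTS2 and ADAMTS14, which remove N-propeptides, had at most 1 and 2 counts in a library. Of 4 tested cross-linking genes only TGM2 passed, and it fell from 3430 ± 214 to 2575 ± 65.9 CPM in DMSO, by 0.41 on the log2 scale (SE 0.051), and by 0.25 (SE 0.051) in cisplatin. LOX, the main lysyl oxidase, had at most 1 count in a library and LOXL4 none, while LOXL2 averaged 155 CPM.

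Of 11 tested genes of collagen degradation, 5 rose and 4 fell in each treatment. MMP15 changed by -1.70 (SE 0.12) and -1.52 (SE 0.11) and the collagenase MMP1 by -0.30 (SE 0.055) and -0.53 (SE 0.054), and CTSB, a lysosomal protease, rose by 0.47 (SE 0.052) in both. Of 7 tested collagen receptors, 4 rose in each treatment, and 2 fell in DMSO and 1 in cisplatin. OSCAR rose from 150 ± 6.01 to 415 ± 9.85 CPM in DMSO, by 1.46 (SE 0.065), and ITGA10 from 298 ± 13.9 to 567 ± 12.2 CPM, by 0.93 (SE 0.051). The receptor kinases DDR1 and DDR2 rose by 0.85 (SE 0.081) and 0.56 (SE 0.078).

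Of 17 matrix partners, 6 could be tested, of which 1 rose and 3 fell in DMSO and 1 rose and 2 fell in cisplatin. NID1, which bridges laminin and type IV collagen, changed by -0.62 (SE 0.051) in DMSO and -0.35 (SE 0.051) in cisplatin and HSPG2 (perlecan) by -0.72 (SE 0.10) and -0.32 (SE 0.097), while FN1 rose by 0.31 (SE 0.077) and 0.48 (SE 0.076). BGN, NID2 and PXDN had at most 1 count in a library and THBS1 and LUM none.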

How the data were processed

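RNA of TYK-nu cells was sequenced as 12 directional poly(A) libraries in a single sequencing lane. Per the labels and the study's methods, the authors checked reads with FastQC 0.11.8, trimmed them with Trim Galore 0.6.0, aligned them to GRCh38 with HISAT2 2.1.0 and counted them with HTSeq-count against Ensembl release 98, using the intersection-strict rule where exons were counted and the union rule where introns were. The deposited table holds whole-number counts per gene and library, separately for exons and introns, neither normalized nor pooled. The strand option is not given in the sources used here, so a gene cannot be told apart from an overlapping antisense gene. A gene without an exon entry (423 genes) or intron entry (913) was left out of tests that need it.

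Symbols, positions and exon lengths came from GENCODE release 44 by Ensembl identifier (17485 of 17508 genes), and promoter sequences from RefSeq on GRCh38.p14. Groups and replicates follow the labels. Exon counts and intron counts were tested with edgeR 4.0.16 (glmQLFit and glmQLFTest, filterByExpr, TMM) in R 4.3.3, in a single fit of the 12 libraries, and p-values were adjusted by Benjamini-Hochberg over all genes tested, with a threshold of 0.05. The SE is the log2 change divided by the root of the quasi-likelihood F. In the edgeR test of the exon/intron ratio a term was fitted for each library, and a gene entered with 10 or more exon counts and 10 or more intron counts together in 3 or more libraries. The study's logistic regression was run with a Wald test on each pair of groups. DESeq2 1.42.0 was an alternative, with other normalizations, filters and fits and each library left out in turn. Each test was tested on simulated data. Tables and plots were made with Python 3.11.15, numpy 2.4.6, pandas 2.3.3 and matplotlib 3.10.9.

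Every detected collagen gene is named. Values in each library are given for collagen genes past the threshold in an edgeR test. Of each list of related genes, up to 4 with the smallest adjusted p in exon counts are named, by their changes or group means. Genes named for being at or near 0, or for their level alone, were chosen after their values were seen. The collagen genes, the lists of related genes, the markers and the tests were chosen with earlier results of these data known. A count of 0 was read as up to 3 counts. Limits of this kind, and counts as such, cover counting error only, since reads carried no molecular identifiers.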

Additional observations from a re-analysis of the deposited data

How the results depend on the processing

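The number of collagen genes called kept within 1.5 times its value under the alternatives for exon counts (other normalizations and filters, DESeq2, the fit of the groups compared alone and the replicate block), and no call of a collagen gene by edgeR reversed its sign. Without single libraries the collagen genes called in exon counts numbered 4 to 6 for time in DMSO, beside 60.5 to 65.4% of all tested genes in either direction, and 4 to 5 in cisplatin (58.1 to 64.0%). In intron counts they numbered 1 to 4 in DMSO (28.0 to 34.5%) and 2 to 3 in cisplatin (25.1 to 32.4%), and for the edgeR ratio 0 to 1 in DMSO (7.46 to 12.7%) and 1 to 2 in cisplatin (6.87 to 13.0%). For the logistic regression they numbered 1 to 4 for time in DMSO (28.8 to 31.1%), 3 to 4 for time in cisplatin (30.1 to 39.3%), 0 to 3 for cisplatin at 24 h (2.53 to 15.9%) and 0 to 1 for cisplatin at 72 h (7.20 to 11.3%). The quasi-binomial regression, which adds the spread between replicates, called 0 collagen genes in each of the 4 comparisons, and over all genes 64, 97, 0 and 0. COL8A1 intron counts in DMSO missed the threshold with exon TMM factors (log2 0.36), with DESeq2 (0.43) and without a filter beyond 1 count (0.43), and the cause was not tested. Deviations of libraries with the same replicate number correlated between -0.108 and 0.102. This check showed no clear effect shared by replicate number, but it cannot tell whether the libraries were paired. The fit with the replicate number as a block called 0 instead of 1 collagen gene in the edgeR ratio for time in DMSO (COL27A1, whose log2 change was 0.42 in both fits, with an edgeR adjusted p of 0.0522 under the block), and 1 instead of 3 in the logistic regression, and changed the number called in no other comparison. The 32 undetected genes did not pass the filter on exon counts, nor COL6A1 that on intron counts, and the part of depth in this was not tested.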
